A study of Mus musculus with 2 samples.

Results

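The 9 genes described here handle the uptake, storage and buffering of calcium in the muscle fibre: the pumps Atp2a1 and Atp2a2, their small regulators Sln and Pln, the calsequestrins Casq1 and Casq2, the junction protein Trdn, the lumenal glycoprotein Srl and the cytosolic buffer Pvalb. They were chosen by symbol from the 27998 genes of the single-nucleus RNA-Seq (snRNA-Seq) matrices, each symbol matched 1 gene, and the rule uses no measured value, although the list was drawn up with earlier results of these data known. Levels were read by library and by the main myosin of each nucleus, which is the myosin heavy chain gene among Myh7 (slow), Myh2, Myh1 and Myh4 (fast) that held at least 60% of at least 3 unique molecular identifiers (UMIs, each marking 1 captured RNA molecule) of these 4 genes.

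Both libraries were made from calf muscle, the gastrocnemius-plantaris (GP), of mice on the B6C3F1 background at 5 months of age and 3 months after tamoxifen. The Ctrl library was labelled Net39 fl/fl and Cre-, and the cKO library HSACreERT2;Net39 fl/fl, in which the promoter of skeletal actin drives an inducible Cre in muscle fibres, so that nuclei of other cells keep the gene. Both groups carried the floxed alleles and both are labelled with tamoxifen. The protocol says that 3 muscles were pooled for each library, whereas the sample titles name 1 mouse, so how many animals a library stands for is unsettled. No barcode could be traced to an animal, and each group was 1 sample. No test between the groups was possible. Every interval below is a 95% interval for counting error only (exact Poisson for levels, exact conditional for ratios, exact binomial for shares) and does not cover the spread between animals.

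The myonuclei numbered 3142 in Ctrl and 3410 in cKO, with medians of 2134.5 and 1639 UMIs. The share of Malat1, a nuclear noncoding RNA, was 26.4% of UMIs in Ctrl and 31.2% in cKO, and nuclei gated by markers of cells outside the fibres numbered 384 and 185. The libraries shared 5 barcodes. Plpp7, the gene of Net39, had 421 UMIs in Ctrl and 289 in cKO over all myonuclei (50.7 and 41.4 CPM, counts scaled to a total of 1000000 UMIs), which does not check the labels, because the deleted part is the first exon and the reads come from the 3′ end of the transcript. The myosin classes carried the markers of their fibre type. A list of 7 slow-fibre markers summed to 8460 CPM in Ctrl and 5211 CPM in cKO Myh7 nuclei against 50.3 and 195 CPM in Myh4 nuclei, and 7 fast-fibre markers summed to 1314 and 1455 CPM in Myh7 nuclei against 4926 and 6497 CPM in Myh4 nuclei.

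A muscle fibre contracts when calcium leaves the sarcoplasmic reticulum and relaxes when calcium pumps return it. Fast fibres chiefly use the pump SERCA1 (Atp2a1) and slow fibres and the heart SERCA2a (Atp2a2). Sarcolipin (Sln) and phospholamban (Pln) are short membrane peptides that bind the pumps and slow uptake. Inside the store calcium is held by calsequestrin, Casq1 in all fibres and Casq2 in slow fibres and the heart. Triadin (Trdn) ties calsequestrin to the release channel, sarcalumenin (Srl) is a calcium-binding glycoprotein of the lumen, and parvalbumin (Pvalb) takes up calcium in the cytosol of fast fibres.

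The coding sequences of both pump regulators are shown because Sln had the largest ratio between the libraries of the 9 genes and because they show how short these peptides are. They were read from GENCODE M21 transcripts (GRCm38), with the start and stop codons in capitals. Sln lies at chr9:53850164-53854560 on the plus strand, and its coding sequence of 96 bases (31 codons before the stop) is in 1 of its 2 exons, at chr9:53853473-53853568. Pln lies at chr10:53337667-53345987 on the plus strand, and its coding sequence of 159 bases (52 codons) is likewise in 1 exon, at chr10:53343864-53344022.
Sln: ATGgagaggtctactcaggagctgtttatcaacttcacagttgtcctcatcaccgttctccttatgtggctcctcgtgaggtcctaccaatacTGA
Pln: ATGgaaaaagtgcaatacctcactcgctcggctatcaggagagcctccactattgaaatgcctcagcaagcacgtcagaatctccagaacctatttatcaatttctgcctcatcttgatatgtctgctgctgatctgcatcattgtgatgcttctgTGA

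The 250 bases before the start of the calsequestrin genes are shown because Casq1 and Casq2 had opposite orders over the myosin classes. RefSeq promoters (GRCm38.p6) were on hand for 5 of the 9 genes, and the windows below lie at chr1:172219896-172220145 on the minus strand for Casq1 and chr3:102086165-102086414 on the plus strand for Casq2. Capitals mark the E-box CANNTG, searched on both strands.
Casq1: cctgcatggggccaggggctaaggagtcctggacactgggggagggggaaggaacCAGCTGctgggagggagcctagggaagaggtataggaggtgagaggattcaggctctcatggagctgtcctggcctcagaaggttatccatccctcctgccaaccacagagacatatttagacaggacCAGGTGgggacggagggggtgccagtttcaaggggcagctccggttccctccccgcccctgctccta
Casq2: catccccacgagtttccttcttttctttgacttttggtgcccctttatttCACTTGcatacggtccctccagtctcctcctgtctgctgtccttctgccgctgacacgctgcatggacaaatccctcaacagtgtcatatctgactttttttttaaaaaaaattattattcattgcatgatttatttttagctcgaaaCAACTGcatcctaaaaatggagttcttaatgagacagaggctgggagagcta
Each window held 2 E-boxes, a motif present in 66.2% of the 32851 RefSeq promoter windows of this length. The Casq2 window also held 1 MEF2 motif, 69 bases before the start and apart from the E-boxes, whereas the Casq1 window held 0, and 2.92% of all windows held one. Of the 2 Pvalb windows, 1 also held a MEF2 motif, 180 bases before its start, although Pvalb was highest in Myh4 nuclei like Casq1. The CArG motif, present in 1.47% of all windows, was in neither calsequestrin window. These matches describe letters in a window and do not show that a factor binds there.

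Over all myonuclei, 3 of the 8 genes with at least 20 UMIs over both libraries were at least 2-fold higher in cKO (Sln, Atp2a2 and Casq2) and 0 were at least 2-fold lower, against 3.57% of the 11771 genes that met this minimum higher and 6.07% lower. The median log2 ratio of the 8 genes was 0.12 and that of all genes was -0.10. Pln, with 9 UMIs in Ctrl and 6 in cKO, fell short of the minimum. Sln had the third highest ratio of the 11771 genes, and Atp2a2 ranked 31 and Casq2 146. The Ctrl levels of Atp2a2 and Casq2 were not above those outside the fibres beyond counting error, as given below. The log2 ratios of the remaining genes were 0.12 for Casq1 (rank 3433), 0.12 for Srl (3448), -0.00 for Trdn (4703), -0.02 for Pvalb (4927) and -0.39 for Atp2a1 (9008). The plot of levels by class shows each gene in both libraries.

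**Figure D1:**
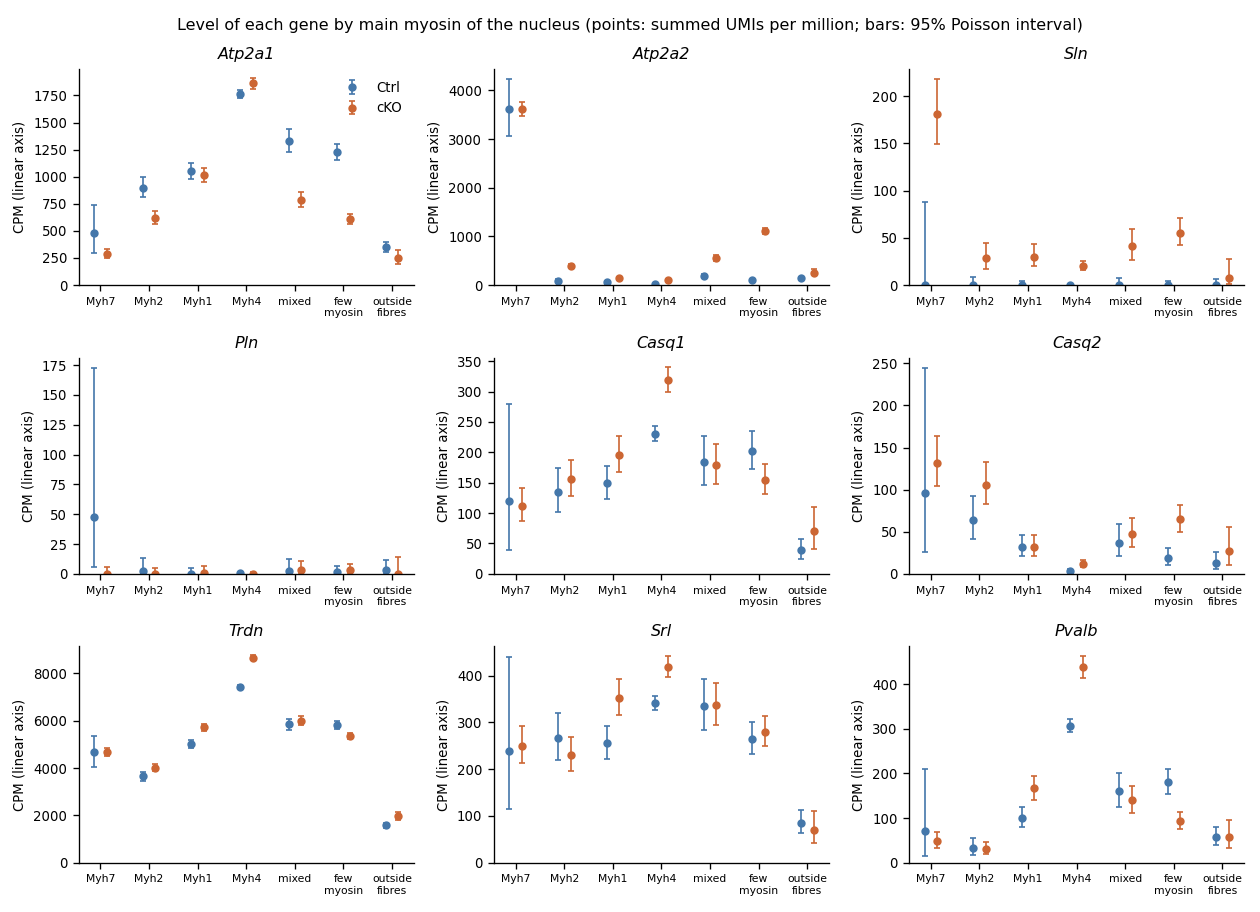
Level in CPM (linear axis, a separate scale for each gene) of the 9 genes by main myosin of the nucleus, for mixed nuclei, for nuclei with few myosin UMIs and for nuclei outside the fibres, in the Ctrl (blue) and cKO (orange) libraries. Bars are 95% Poisson intervals for counting error, and Sln stood at 0 to 0.35 CPM in the Ctrl classes and at 20.2 to 181 CPM in the cKO classes.

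To judge low levels, each class was set beside the nuclei outside the fibres, where fibre transcripts can come from free RNA in the droplet. Tnnt1, the slow-fibre troponin T, which those nuclei should lack, stood at 6.44 CPM there in Ctrl and 62.2 CPM in cKO. Those levels rest on 4 UMIs in Ctrl and 16 in cKO. In cKO Myh4 nuclei Tnnt1 stood at 43.6 CPM, 0.702 times (0.416 to 1.26) the level outside the fibres, an interval that includes equal levels. Levels of a fibre gene at or below those outside the fibres were read as background by convention. Nuclei outside the fibres were shallower, with medians of 1173.5 UMIs in Ctrl and 1021 in cKO against 2134.5 and 1639 in myonuclei. The same number of free UMIs gives a higher CPM in a shallower nucleus, so this reading can set the background too high. Atp2a2 is also used by cells other than muscle fibres, so for this gene the comparison cannot separate free RNA from their own transcripts. Tnnt1 UMIs per 100 Atp2a2 UMIs were 4.60 outside the fibres against 33.8 in Myh7 nuclei of Ctrl, and 24.2 against 26.6 in cKO.

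Atp2a2 (chr5:122453513-122502225, minus strand) was 65.1 CPM (59.7 to 70.8) in Ctrl myonuclei against 649 CPM (631 to 668) in cKO myonuclei, with a log2 ratio of 3.32 (3.19 to 3.45). The Ctrl level lay below the 140 CPM outside the fibres. In Myh7 nuclei, however, Atp2a2 was 3609 CPM (3056 to 4232) in Ctrl against 3611 CPM (3464 to 3764) in cKO, with a log2 ratio of 0.00 (-0.24 to 0.25). These levels differed by less than the counting error, and Ctrl contributed only 20 such nuclei with 151 Atp2a2 UMIs and cKO 281 nuclei with 2251. Myh7 nuclei were 0.637% (0.389 to 0.981) of Ctrl myonuclei and 8.24% (7.34 to 9.21) of cKO myonuclei, and without them the log2 ratio over the remaining myonuclei was still 2.93.

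Outside the Myh7 class Atp2a2 was higher in cKO in every class. In Myh2 nuclei it was 82.6 CPM in Ctrl against 392 CPM in cKO, with a log2 ratio of 2.25 (1.74 to 2.80), and the cKO level was 1.53 times (1.16 to 2.03) that outside the fibres. Nuclei with few myosin UMIs (fewer than 3) had 95.2 and 1113 CPM, with a log2 ratio of 3.55 (3.22 to 3.89), and mixed nuclei, in which no myosin reached 60%, had 179 and 559 CPM, with a log2 ratio of 1.64 (1.29 to 2.00). The cKO levels of these classes were 4.34 times (3.39 to 5.65) and 2.18 times (1.67 to 2.88) that outside the fibres. In Myh4 nuclei the values were 23.1 and 107 CPM, with a log2 ratio of 2.21 (1.91 to 2.51), and in Myh1 nuclei 70.9 and 140 CPM, with a log2 ratio of 0.98 (0.52 to 1.45). The sum of the 7 slow-fibre markers was also higher in cKO in each of these classes, but not in step with Atp2a2. It was 167 CPM in Ctrl and 1483 CPM in cKO nuclei with few myosin UMIs, with all 7 markers detected in each. The sums were 538 and 733 CPM in Myh2, 131 and 283 CPM in Myh1, 50.3 and 195 CPM in Myh4 and 387 and 886 CPM in mixed nuclei. The part of these markers in the Atp2a2 level was not tested. In Myh4 and Myh1 nuclei the cKO levels of Atp2a2 lay below the 256 CPM outside the fibres, at 0.416 times (0.319 to 0.551) and 0.544 times (0.401 to 0.745) that level, and cannot be told apart from free RNA. The level outside the fibres was itself 140 CPM in Ctrl, and in both libraries it may include those cells' own Atp2a2. The Ctrl levels of Myh2, Myh1, Myh4 and few-myosin nuclei were 0.165 to 0.679 times that level and those of mixed nuclei 1.28 times (0.936 to 1.75), so the Ctrl side of each of these ratios was not above the level outside the fibres beyond counting error.

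Atp2a1 (chr7:126445858-126463108, minus strand) was 1563 CPM in Ctrl against 1193 CPM in cKO over all myonuclei, with a log2 ratio of -0.39 (-0.43 to -0.35). Its order over the classes was the same in both libraries, with Myh4 highest, then Myh1, Myh2 and Myh7, and the intervals of Myh1 and Myh2 overlapped in Ctrl. In the Myh4 class it was 1764 CPM (1729.5 to 1799) in Ctrl against 1861 CPM (1812 to 1910) in cKO, with a log2 ratio of 0.08 (0.03 to 0.12), and in the Myh1 class the log2 ratio was -0.05 (-0.18 to 0.09). Lower levels in cKO were found in Myh2 nuclei (899 and 622 CPM, log2 ratio -0.53, -0.73 to -0.33), in mixed nuclei (log2 ratio -0.76) and in nuclei with few myosin UMIs (1228 and 608 CPM, log2 ratio -1.01, -1.16 to -0.87). The cKO level in Myh7 nuclei, 286 CPM, was 1.13 times (0.846 to 1.53) that outside the fibres and could not be told apart from background.

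**Figure D2:**
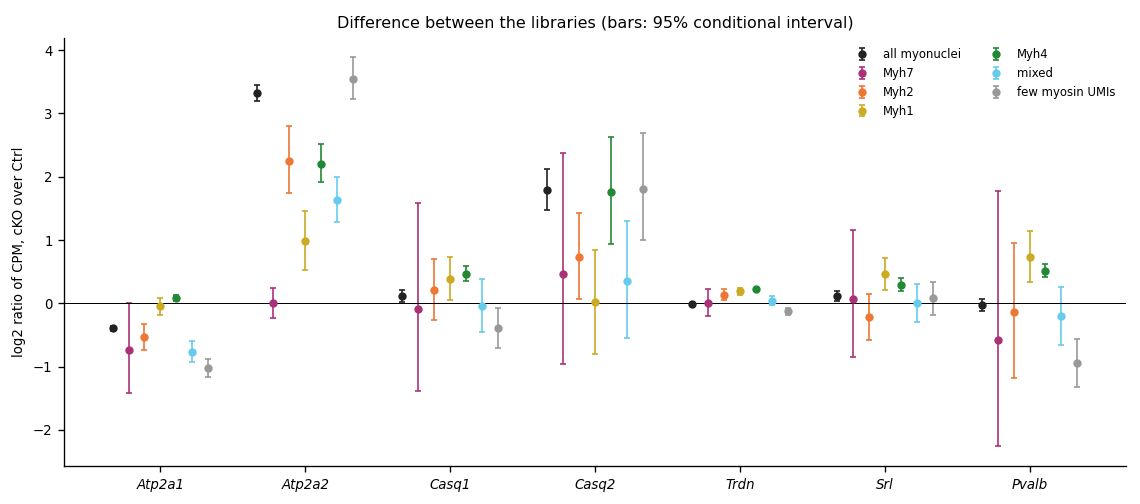
Log2 ratio of CPM, cKO over Ctrl, for the 7 genes with UMIs in every class of both libraries, over all myonuclei and in each class. Bars are 95% conditional intervals, Atp2a2 lies at 0.00 in Myh7 nuclei and at 3.55 in nuclei with few myosin UMIs, and the Myh7 bars of the other genes rest on 20 Ctrl nuclei.

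The share of pump UMIs from Atp2a2 gives the balance of both pumps within a class. Since the genes differ in length, the share is compared between classes and libraries only. Over all myonuclei it was 4.00% (3.67 to 4.34) in Ctrl and 35.2% (34.4 to 36.1) in cKO. Myh7 nuclei had 88.3% (82.5 to 92.7) and 92.7% (91.6 to 93.7), intervals that overlapped. The share was 8.41% and 38.7% in Myh2 nuclei, 6.32% and 12.1% in Myh1 nuclei, 1.30% and 5.43% in Myh4 nuclei and 7.19% and 64.7% in nuclei with few myosin UMIs. Nuclei outside the fibres had 28.5% in Ctrl and 50.4% in cKO, above the shares of Myh2, Myh1, Myh4 and mixed nuclei of their library. In cKO the interval outside the fibres (41.5 to 59.2) overlapped those of Myh2 (35.1 to 42.4) and mixed nuclei (38.3 to 44.9).

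**Figure D3:**
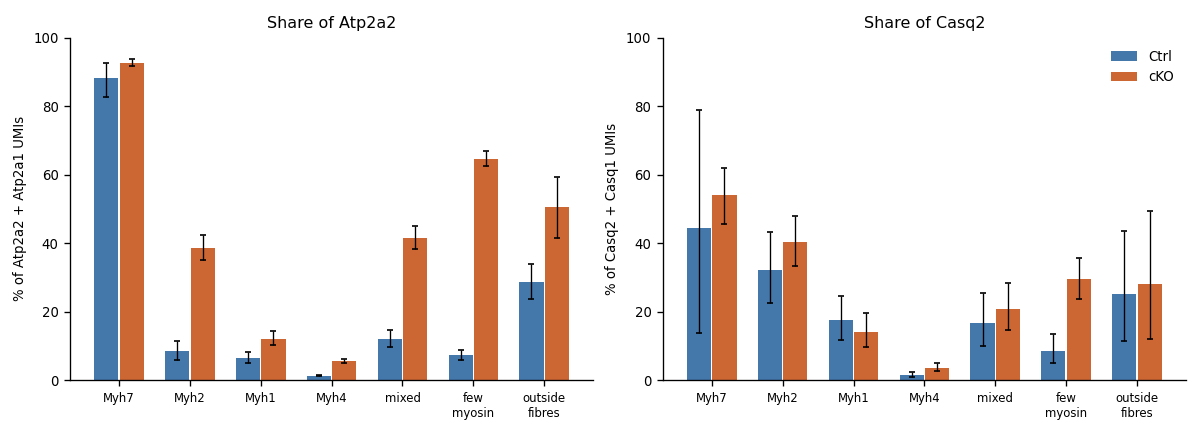
Share of Atp2a2 among pump UMIs (left) and of Casq2 among calsequestrin UMIs (right) by class in Ctrl (blue) and cKO (orange), in percent with exact 95% binomial intervals. Nuclei with few myosin UMIs had an Atp2a2 share of 7.19% in Ctrl and 64.7% in cKO.

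At least 3 pump UMIs were found in 1907 of 3142 Ctrl and 1693 of 3410 cKO myonuclei. Among these, at least 60% came from Atp2a2 in 41 of 1907 Ctrl nuclei (2.15%, 1.55 to 2.91) and in 516 of 1693 cKO nuclei (30.5%, 28.3 to 32.7), and 12 and 22 nuclei had no main pump, which a nucleus with exactly 3 pump UMIs cannot lack. Of the 516 Atp2a2 nuclei in cKO, 236 were Myh7 nuclei, 169 had few myosin UMIs, 37 were Myh2, 36 mixed, 27 Myh4 and 11 Myh1 nuclei. More than 1 in 3 Myh2 nuclei with enough pump UMIs (37 of 104) were of this kind, against 4 of 63 in Ctrl. In Myh4 nuclei the numbers were 27 of 835 in cKO and 4 of 1424 in Ctrl. Nuclei with few myosin UMIs had 169 of 248 in cKO and 10 of 187 in Ctrl. Outside the fibres Atp2a2 was the main pump in 5 of 13 cKO nuclei (38.5%, 13.9 to 68.4) and 4 of 32 Ctrl nuclei (12.5%, 3.51 to 29.0), and the Myh2 shares were 35.6% (26.4 to 45.6) and 6.35% (1.76 to 15.5). The shares outside the fibres may include those cells' own Atp2a2.

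Sln had 2 UMIs in Ctrl myonuclei, both in 1 Myh4 nucleus, and 307 UMIs in 190 cKO nuclei. Its level was 0.241 CPM (0.0291 to 0.869) in Ctrl against 44.0 CPM (39.2 to 49.2) in cKO, with a log2 ratio of 7.51 (5.65 to 10.57) that rests on those 2 Ctrl UMIs. Of the cKO nuclei with Sln, 124 had 1 UMI, 61 had 2 to 4 and 5 had 5 or more, with 8 as the highest value. The 10 nuclei with most held 16.6% of its UMIs over all myonuclei. Within classes, where fewer nuclei had Sln, the 10 with most held 38.9% in Myh7, 85.0% in Myh2, 66.7% in Myh1 and 54.1% in Myh4 nuclei, the last including the nucleus with 8.

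Within cKO, Sln was highest in Myh7 nuclei at 181 CPM (149 to 218), where 58 of 281 nuclei (20.6%) had a UMI. It was 28.5 CPM (17.4 to 44.0) in Myh2, 29.9 CPM (19.7 to 43.5) in Myh1 and 20.2 CPM (15.4 to 25.9) in Myh4 nuclei, 3 values whose intervals overlapped. Nuclei with few myosin UMIs had 55.3 CPM (42.1 to 71.3) and mixed nuclei 40.9 CPM (26.9 to 59.5). Outside the fibres 2 UMIs gave 7.77 CPM (0.941 to 28.1). The ratio to that level was 23.3 (6.31 to 195) in Myh7 nuclei, 7.11 (1.88 to 60.1) in nuclei with few myosin UMIs and 5.26 (1.32 to 45.6) in mixed nuclei. In Myh4, Myh2 and Myh1 nuclei it was 2.59 (0.688 to 21.9), 3.67 (0.891 to 32.4) and 3.85 (0.968 to 33.4), so Sln in these classes could not be told apart from free RNA at this depth.

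With each nucleus thinned at random to 500 UMIs, 58 of 3410 cKO myonuclei (1.70%) and 0 of 3142 Ctrl myonuclei had a Sln UMI, which allows a Ctrl share of up to 0.0955% by the floor of 3 counts and 0.117% by the exact binomial limit. The unthinned shares were 5.57% and 0.0318%. Outside the fibres the unthinned cKO share was 1.08%, at a median of 1021 UMIs against 1639 in myonuclei, and after thinning 0 of 185 nuclei had a UMI, which allows up to 1.62% by the floor and 1.97% by the exact limit. Thinned Myh7 nuclei of cKO had a Sln UMI in 16 of 281 (5.69%, 3.29 to 9.08).

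The Myh7 nuclei of Ctrl had 0 Sln UMIs among 41843, and against the floor of 3 UMIs per class the cKO level was at least 2.53-fold higher. The floor leaves out the counting error of the cKO level, and the lower limit of the exact conditional interval, which includes it, was 2.02-fold. By the floor and by the exact limit the values were 4.03-fold and 2.98-fold in Myh2, 8.16-fold and 6.20-fold in Myh1, 6.30-fold and 4.78-fold in mixed nuclei, and 15.9-fold and 12.5-fold in nuclei with few myosin UMIs. The cKO levels in Myh2 and Myh1 nuclei could not be told apart from free RNA, as given above. The 41 Ctrl nuclei with Atp2a2 as main pump also had 0 Sln UMIs, and the 516 such nuclei of cKO had 160, or 128 CPM (109 to 150). In the same sets Casq1 was 107 CPM in Ctrl against 108 CPM in cKO, and Trdn 4418 and 4687 CPM.

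Nuclei of cKO with a Sln UMI were set beside those without one. In Myh4 nuclei Atp2a2 was 340 CPM where Sln was seen and 95.6 CPM where it was not, with a log2 ratio of 1.83 (1.35 to 2.28), and the log2 ratio of Casq2 was 2.06 (0.51 to 3.35) and that of Atp2a1 -0.54 (-0.77 to -0.33). The Casq2 value rests on 6 UMIs in the nuclei with Sln, and none of Sln, Atp2a2 and Casq2 stood above the level outside the fibres beyond counting error in cKO Myh4 nuclei as a whole. The log2 ratio of Atp2a2 was -0.08 (-0.22 to 0.05) in Myh7, 1.12 (0.48 to 1.71) in Myh2, 0.19 (-1.06 to 1.21) in Myh1 and 1.22 (1.00 to 1.44) in few-myosin nuclei. That of Casq2 was -0.13 in Myh7, -0.79 in Myh2, -0.74 in Myh1 and -0.55 in few-myosin nuclei, each with an interval that included 0. The Myh4 nuclei with Sln were deeper, with medians of 2935 UMIs against 1642.5, and held more Malat1, 351269 CPM against 280579 CPM, and fibre-type genes moved with Sln in them. The log2 ratio was 1.06 (0.07 to 1.92) for Tnnt1, -0.59 (-0.79 to -0.40) for the fast troponin T gene Tnnt3, 1.54 (1.01 to 2.03) for Myh1 and -0.52 (-0.67 to -0.37) for Myh4, and the part of depth and of these genes was not tested. These are nuclei of 1 library and the values describe that library. Sln UMIs per 100 Atp2a2 UMIs were 5.02 in Myh7 nuclei, 7.27 in Myh2, 21.4 in Myh1 and 18.9 in Myh4 nuclei, and 3.03 outside the fibres.

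Pln had 9 UMIs in Ctrl and 6 in cKO, 1.08 CPM (0.495 to 2.06) and 0.860 CPM (0.315 to 1.87). Its highest class level, 47.8 CPM, was 2 UMIs in 1 Ctrl Myh7 nucleus, and the 281 cKO Myh7 nuclei had 0 UMIs, with an upper limit of 5.92 CPM. The gene lies across from Cep85l, which runs on the opposite strand and had 3793 and 1320 UMIs, and the methods state the default settings of Cell Ranger, which count a read for a gene on that gene's own strand. In Myh7 nuclei the interval of the cKO over Ctrl ratio, 0 to 0.357, lay below 1, but it rests on the 2 UMIs of that 1 nucleus. Over all myonuclei the log2 ratio was -0.33 (-2.10 to 1.32), and no difference of Pln was detectable at this depth.

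Casq2 (chr3:102086415-102146514, plus strand) was 13.2 CPM (10.9 to 16.0) in Ctrl against 46.0 CPM (41.1 to 51.3) in cKO, with a log2 ratio of 1.80 (1.48 to 2.12). The interval of the Ctrl level overlapped that outside the fibres, 12.9 CPM (5.56 to 25.4). The class order of Casq2 was Myh7, Myh2, Myh1 and Myh4 in both libraries, with overlapping intervals of Myh7 and Myh2 in both and of Myh2 and Myh1 in Ctrl. In Myh7 nuclei it was 95.6 CPM from 4 UMIs in Ctrl and 132 CPM (105 to 163) in cKO, with a log2 ratio of 0.46 (-0.95 to 2.37). Myh2 nuclei had 63.7 and 106 CPM, with a log2 ratio of 0.73 (0.07 to 1.42), and Myh1 nuclei 31.8 and 32.1 CPM, with a log2 ratio of 0.02 (-0.80 to 0.84). In nuclei with few myosin UMIs the levels were 18.6 and 64.7 CPM, with a log2 ratio of 1.80 (1.00 to 2.68), and the Ctrl level was 1.44 times (0.582 to 3.89) that outside the fibres and could not be told apart from free RNA. Myh4 nuclei had 3.51 and 11.9 CPM, with a log2 ratio of 1.76 (0.93 to 2.63), but both lay below the levels outside the fibres, 12.9 and 27.2 CPM, and were read as background. Casq2 in cKO was 4.84 times (2.24 to 12.4) the level outside the fibres in Myh7, 3.88 times (1.79 to 9.98) in Myh2 and 2.38 times (1.09 to 6.13) in nuclei with few myosin UMIs. At 1.18 times (0.506 to 3.20) in Myh1 and 1.73 times (0.746 to 4.64) in mixed nuclei it could not be told apart from free RNA.

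Casq1 (chr1:172209894-172219868, minus strand) had the opposite class order, with Myh4 highest and Myh7 lowest in both libraries, although the intervals of Myh1, Myh2 and Myh7 overlapped with their neighbours. Over all myonuclei it was 212 CPM in Ctrl against 230 CPM in cKO, with a log2 ratio of 0.12 (0.02 to 0.22). Myh4 nuclei had 231 CPM (218 to 243) in Ctrl against 319 CPM (299 to 340) in cKO, with a log2 ratio of 0.47 (0.35 to 0.59). In cKO the Myh7 level was 112 CPM, at 1.61 times (0.946 to 2.86) that outside the fibres and so not told apart from background, and the Myh7 over Myh4 log2 ratio was -1.51. The share of Casq2 among calsequestrin UMIs was 5.89% (4.86 to 7.05) in Ctrl and 16.7% (15.0 to 18.4) in cKO over all myonuclei. In nuclei with few myosin UMIs it was 8.42% and 29.5%, in Myh2 nuclei 32.1% and 40.4%, in mixed nuclei 16.7% and 20.8%, in Myh4 nuclei 1.50% and 3.59%, and in Myh7 nuclei 44.4% (13.7 to 78.8) and 53.9% (45.7 to 62.1). In Myh1 nuclei the order was the other way, 17.6% (11.8 to 24.7) and 14.1% (9.68 to 19.7), with overlapping intervals. Outside the fibres the share was 25.0% (11.5 to 43.4) in Ctrl and 28.0% (12.1 to 49.4) in cKO, intervals that overlapped those of Myh2 nuclei in both libraries and of few-myosin and Myh7 nuclei in cKO.

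Trdn (chr10:33080554-33476709, plus strand) was detected in nearly every myonucleus, in 98.8% of Ctrl and 99.1% of cKO. Its level was 6728 CPM in Ctrl against 6707 CPM in cKO, with a log2 ratio of -0.00 (-0.02 to 0.01). Myh4 nuclei were highest, with 7426 and 8674 CPM (log2 ratio 0.22, 0.20 to 0.25), and Myh2 nuclei lowest, with 3653 and 4015 CPM (log2 ratio 0.14, 0.05 to 0.23). Nuclei outside the fibres held 1575 and 1963 CPM of this fibre transcript. Srl (chr16:4480216-4541816, minus strand) was present in every class. Its cKO level ran from 230 CPM in Myh2 to 419 CPM in Myh4 nuclei, and Ctrl from 239 CPM in Myh7 to 341 CPM in Myh4 nuclei. The log2 ratio of Srl was 0.46 (0.21 to 0.72) in Myh1 and 0.30 (0.19 to 0.40) in Myh4 nuclei. It was -0.22 (-0.57 to 0.14) in Myh2, 0.07 (-0.85 to 1.16) in Myh7, 0.00 (-0.30 to 0.31) in mixed and 0.08 (-0.18 to 0.33) in few-myosin nuclei.

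Pvalb (chr15:78191114-78206400, minus strand) was 250 CPM in Ctrl against 246 CPM in cKO over all myonuclei. In Myh4 and Myh1 nuclei it was higher in cKO. Myh4 nuclei had 307 CPM (293 to 322) and 438 CPM (415 to 462), with a log2 ratio of 0.51 (0.41 to 0.62), and Myh1 nuclei 100 CPM (79.7 to 124) and 166 CPM (141 to 195), with a log2 ratio of 0.73 (0.33 to 1.14). In nuclei with few myosin UMIs it was lower, 180 CPM in Ctrl against 93.7 CPM in cKO, with a log2 ratio of -0.94 (-1.32 to -0.57), and that cKO level was 1.61 times (0.929 to 2.98) the one outside the fibres. As for Atp2a1, which was also lower in these nuclei, the fast-fibre markers there summed to 3767 CPM in Ctrl and 3201 CPM in cKO beside the slow-fibre sums given above, and their part was not tested. The cKO levels in Myh7 and Myh2 nuclei, 48.1 and 29.9 CPM, lay below the 58.3 CPM outside the fibres and were read as background.

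The differences over all myonuclei were split into what the class shares and what the levels inside the 6 classes contributed, as averages over both orders. For Atp2a2 the difference of 584 CPM held 347 CPM from class shares and 237 CPM from levels, and 131 CPM of the latter came from nuclei with few myosin UMIs. That class has no main myosin, so a change of fibre type inside it would count as levels here, which was not tested. The 43.7 CPM of Sln were 8.37 CPM from shares and 35.4 CPM from levels. Of this level part, 11.1 CPM came from Myh4, 3.41 CPM from Myh1 and 2.16 CPM from Myh2 nuclei, where Sln could not be told apart from free RNA. The 32.8 CPM of Casq2 were 16.5 CPM from shares and 16.3 CPM from levels. Atp2a1 was lower by 370 CPM, made up of -270 CPM from shares and -100.1 CPM from levels. Over the nuclei of the 4 main myosins alone the parts of Atp2a2 were 414 CPM from shares and 98.4 CPM from levels, and the level part of Atp2a1 changed sign, to 23.8 CPM beside -280 CPM from shares. Trdn and Pvalb, which hardly differed in total, combined opposite parts. The parts of Trdn were -780 CPM from shares and 758 CPM from levels, and those of Pvalb -70.8 and 66.9 CPM. Over the 4 main myosins alone the totals were 171 CPM for Trdn and 25.9 CPM for Pvalb, with parts that kept these signs.

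**Figure D4:**
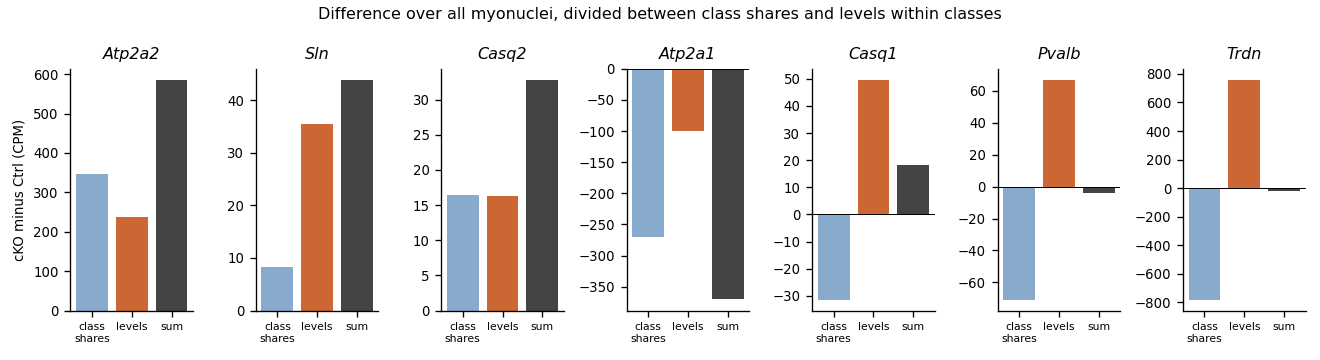
Difference in CPM, cKO minus Ctrl, over all myonuclei for 7 genes, split into the contribution of class shares (light blue), that of levels inside classes (orange) and their sum (dark grey), each gene on its own scale and without an error estimate. Both parts of Atp2a2 were positive, and those of Trdn and Pvalb had opposite signs.

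Within classes the counts of genes at least 2-fold higher in cKO were 3 of 8 in Myh4 nuclei (Sln, Atp2a2 and Casq2, beside 2.76% of all genes higher and 5.71% lower, none of which stood above the level outside the fibres beyond counting error), 2 in Myh2 nuclei (Sln and Atp2a2, beside 4.28% higher and 6.61% lower), 1 in Myh1 nuclei (Sln, 3.87% and 5.47%), 2 in mixed nuclei (Sln and Atp2a2, 5.03% and 6.28%) and 3 in nuclei with few myosin UMIs (Sln, Atp2a2 and Casq2, 5.04%). Sln in Myh2 and Myh1 nuclei of cKO was not told apart from the level outside the fibres. In Myh7 nuclei Sln alone was counted, where 18.7% of all genes were higher and 13.8% lower, with only 20 nuclei in Ctrl. Atp2a1 in nuclei with few myosin UMIs was the only tested member at least 2-fold lower in a class, beside 9.98% of all genes there. Between Myh7 and Myh4 nuclei of cKO, 3 members were at least 2-fold higher in Myh7 nuclei (Sln, Atp2a2 and Casq2, beside 9.15% of all genes) and 3 lower (Atp2a1, Casq1 and Pvalb, beside 14.1%). In Ctrl 7 members were tested, since Sln and Pln fell short of the minimum. The counts were 2 higher (Atp2a2 and Casq2, beside 20.1% of all genes) and 2 lower (Atp2a1 and Pvalb, beside 47.1%), with the same limit of 20 nuclei.

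Of 42 further genes of calcium handling, 41 were found in the matrices and 40 had at least 20 UMIs. Over all myonuclei 22 had a positive and 18 a negative log2 ratio, with a median of 0.11, and 1 was at least 2-fold higher in cKO. That was Cacnb1, the beta subunit of the voltage sensor, at 21.2 CPM in Ctrl against 43.4 CPM in cKO (log2 ratio 1.04, 0.76 to 1.31), and 0 were at least 2-fold lower, beside 3.57% of all genes higher and 6.07% lower. The release channel Ryr1 had a log2 ratio of 0.13 (0.10 to 0.15) and the voltage sensor Cacna1s one of 0.30 (0.21 to 0.39). Camk2d, a calcium-dependent kinase, had 0.96 (0.89 to 1.04), and the inositol trisphosphate receptor Itpr1 had -0.74 (-0.85 to -0.62). Mrln, a further peptide regulator, was not found by name, and Strit1 had 3 and 7 UMIs.

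The genes whose levels were most like each member over the 8 combinations of 4 myosins and 2 libraries were found among 5202 genes with at least 200 UMIs, by Pearson's r of log2(CPM + 5). For Casq1 these were Ryr1 (r = 0.99) and Bmpr1a (0.98), for Atp2a1 Tpm1 (0.98) and Hivep2 (0.98), and for Atp2a2 Ncald (0.98) and Svil (0.98). Sln was closest to Fbxl20 (0.98) and Tsc22d4 (0.96), Casq2 to Gm28653 (0.98) and 2310016D23Rik (0.98), Srl to Cpeb2 (0.97) and Ank3 (0.96), Trdn to Ccdc91 (0.99) and Pds5b (0.99), and Pvalb to Ccdc91 (0.99) and Map2k6 (0.98). The r of Pln rested on 8 UMIs and its nearest genes, Glrx2 and Synj1, carry no weight. The Ctrl points of Sln held 0 UMIs in Myh7, Myh2 and Myh1 nuclei and 2 in Myh4 nuclei, so its nearest genes carry little weight. The points share 2 libraries, and these values describe likeness over 8 points and nothing more.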

How the data were processed

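Single-nucleus RNA-Seq of GP muscle gave 1 Ctrl and 1 cKO library. The authors deposited raw UMI counts per gene and barcode, made with Cell Ranger 3.1.0 on mm10 according to the submitters' processing notes, and at default settings according to the methods, which count reads on the strand of the gene. The gene annotation release, and whether the reference took introns as part of the transcripts, are not given in the sources used here. The labels and the methods name different releases of the kit, so the chemistry is unsettled. Barcodes had at least 500 UMIs (3863 in Ctrl, 3994 in cKO).

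Nuclei with at least 100 genes, at least 500 UMIs and at most 10% mitochondrial UMIs were kept. Scrublet (scanpy 1.11.5, expected rate 0.06) marked 0 nuclei and had not worked, so the 8% with the highest score were removed (307 and 313). Nuclei with at least 3 UMIs of 1 marker list of cells outside the fibres, and at least 0.3% of their UMIs, were set apart, and 425 Ctrl and 340 cKO nuclei with 2 UMIs of such a list stayed among the myonuclei. Counts of the nuclei of a class were added up within each library and scaled to a total of 1000000 (CPM). No test was made, since each group was 1 library. Main myosins, classes and intervals are given in the report. Scripts were tested on simulated counts. The tools were scipy 1.17.1 and numpy 2.4.6 under Python 3.11.15, pandas 2.3.3 for tables and matplotlib 3.10.9 for plots. The named genes are the 9 members, 42 other genes of calcium handling, and the 2 genes most like each member. The members and lists were chosen with earlier results of these data known. Alternatives covered doublets, depth, the gate, the CPM total, the averaging over nuclei and the myosin rule.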

Additional observations from a re-analysis of the deposited data

Results flagged for a closer look

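In 4 genes the log2 ratio of cKO over Ctrl went in opposite directions in different classes, with intervals that excluded 0 in each. The difference between classes was not tested. Atp2a1 had 0.077 in Myh4 nuclei against -0.53 in Myh2 nuclei, -0.76 in mixed nuclei and -1.01 in nuclei with few myosin UMIs. Casq1 had 0.39 in Myh1 and 0.47 in Myh4 nuclei against -0.39 in nuclei with few myosin UMIs, a value that reversed to 0.090 (-0.025 to 0.21) when the main myosin was read after thinning. Pvalb had 0.73 in Myh1 and 0.51 in Myh4 nuclei against -0.94 in nuclei with few myosin UMIs. Trdn had 0.14 in Myh2, 0.19 in Myh1 and 0.22 in Myh4 nuclei against -0.12 in nuclei with few myosin UMIs, a value that reversed under 3 alternatives (0.15, 0.026 and 0.014), so that the opposite direction was lost there. In nuclei with few myosin UMIs, which gave a lower value in each of these genes, 7 slow-fibre markers summed to 167 CPM in Ctrl and 1483 CPM in cKO, and 7 fast-fibre markers to 3767 and 3201 CPM, and their part in these ratios was not tested.

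The nuclei removed by their doublet score, which were left out of the values in the report, also held signal in cKO above the Ctrl level of removed nuclei. Sln stood at 47.5 CPM, Atp2a2 at 775 CPM, Casq2 at 50.5 CPM, Pvalb at 264 CPM and Trdn at 6617 CPM.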

How the results depend on the processing

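Of 677 values under alternatives of 86 results, 579 stayed within the counting interval of the reported value, 94 moved outside it and 4 reversed, and for none was the cause tested. Over all myonuclei the log2 ratio of Atp2a2 was 3.18 with nuclei outside the fibres kept, 3.11 as the mean of the CPM of single nuclei and 2.93 without the Myh7 nuclei, the last chosen after seeing the data. Atp2a1 was -0.29 without Malat1 and mitochondrial genes in the total, and -0.29 without the Myh7 nuclei. Without Malat1 and mitochondrial genes Casq1 was 0.22, Srl 0.22, Pvalb 0.077 and Trdn 0.095. Pvalb was 0.11 as the mean over nuclei and 0.081 without the Myh7 nuclei. Trdn was -0.028 with at least 1000 UMIs per nucleus, 0.038 with nuclei outside the fibres kept, 0.069 as the mean over nuclei and 0.035 without the Myh7 nuclei. The Atp2a2 share of pump UMIs was 4.54% in Ctrl with nuclei outside the fibres kept and 36.1% in cKO with all doublet scores kept. In nuclei with few myosin UMIs Casq1 reversed to 0.090 when the main myosin was read after thinning, and Trdn reversed to 0.15 with nuclei outside the fibres kept, 0.026 without Malat1 and mitochondrial genes and 0.014 as the mean over nuclei. No paired analysis was possible because each group was 1 library, and for the same reason no replicate could be left out. The Myh7 class held only 20 nuclei in Ctrl, and the median depth of its nuclei was 2030 UMIs in Ctrl and 1987 in cKO.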
